A study of Mus musculus with 37 samples.

Results

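RNA of 10 genes on mouse chromosome 7 was followed in regenerating liver: Hddc3, Abhd2, Aen, Rccd1, Fes, Cib1, Aqp11, Lrrc32, Fam174b and Plekhb1. All 10 lie within 20 Mb of Nox4, the gene that was knocked out, 7 of them at lower and 3 at higher coordinates. They were chosen by the measured difference of their RNA between Nox4 knockout (KO) and wild-type (WT) livers, and were found by symbol in the deposited table of 55487 genes. All 10 were among the 15564 genes with enough counts to be tested. Since the difference between KO and WT livers chose these genes, it is described here without a test. Their response to surgery and their dependence on sex did not enter that choice and were tested. The change of the genotype difference between stages is made of the differences that chose the genes. Its p-values for the 10 genes are a description.

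The livers came from mice of genotype NOX4-/- (KO) or WT that had part of the liver removed (partial hepatectomy) or were sham-operated. The KO libraries numbered 5 after sham surgery and 3, 4, 4 and 3 at 6 h, 24 h, 48 h and 7 d after hepatectomy, against 5 WT sham libraries and 3, 3, 4 and 3 WT libraries at the same times. Sham livers were taken at mixed times: KO sham liver 1 at 24 h, livers 2 and 3 at 48 h, liver 4 at 72 h and liver 5 at 6 h, and WT sham liver 1 at 7 d, liver 3 at 24 h, livers 2 and 4 at 48 h and liver 5 at 6 h. Both groups taken 6 h after hepatectomy were male, and males and females were present in each of the remaining 8 groups. No strain, age, targeting construct or breeding scheme is given in the sources used here, and nothing says whether KO and WT mice were littermates. The labels do not name the animals, so p-values measure the spread between these libraries, which may be technical.

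Nox4 encodes an NADPH oxidase that releases hydrogen peroxide. Genes on the same chromosome are inherited together unless recombination separates them, and a mouse line selected for an allele of a gene also carries whatever alleles of the neighbouring genes came with it. The 10 genes share no pathway. They encode enzymes of nucleotides, lipids and nucleic acids, a tyrosine kinase, a calcium-binding adaptor, a water channel, a docking receptor for latent TGF-beta and membrane-associated proteins of less known function.

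Total counts per library were between 26232544 and 48827025. CPM, the unit used throughout, is the count scaled to a common library total, and a log2 change is that of the fitted model with its standard error (SE). The model also scales each library by a factor (TMM) that CPM leaves out, so CPM values and log2 changes can differ. That factor ran from 0.658 in WT 6 h liver 2 to 1.36 in KO 48 h liver 4. At 24 h it was 0.791 to 0.984 in KO livers and 1.01 to 1.31 in WT livers. Nox4 RNA was between 0 and 5.98 CPM in the 19 KO livers, against 0.837 to 30.8 CPM in the 18 WT livers, and the KO minus WT change averaged over the 5 stages was -2.82 ± 0.28 on the log2 scale (SE). Males had more Nox4 RNA than females (log2 change 3.58 ± 0.34 (SE), adjusted p = 2.67e-09 by edgeR's quasi-likelihood test with Benjamini-Hochberg adjustment). Of 57 markers of 9 liver and blood cell types, all but Foxp3 had enough counts to be tested. For KO against WT averaged over the stages, 3 passed, against 2.72% of all tested genes. They were Des and Hbb-bt (lower) and Dcn (higher). Hepatocyte markers summed to between 62242 and 145952 CPM in every library. 5 libraries stood apart, with a mean Pearson correlation with the other libraries between 0.898 and 0.916, and the other libraries had 0.926 to 0.952. They were KO 24 h livers 2 to 4, WT 24 h liver 3 and WT 48 h liver 3. Within its own group, KO 24 h liver 1 had the lowest mean correlation of any library (0.901). KO 24 h livers 2 to 4 had 0.932 to 0.940 there. Without liver 1 alone, 5452 genes passed for KO against WT at 24 h, against 2891 with every library in. Values below marked as without KO 24 h livers 2 to 4 and WT 24 h liver 3 leave out the 4 of the 5 taken at 24 h. That leaves liver 1 as the only KO liver at 24 h. Values at 24 h in that fit rest on it and cannot show which livers a difference came from.

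4 of the genes lie in a row on the side of lower coordinates. Of these, Cib1 (chr7:80227147-80232813, minus strand) was lower in KO livers, while Rccd1 (chr7:80293229-80324454, minus strand), Hddc3 (chr7:80343104-80350547, plus strand) and Fes (chr7:80377756-80387946, minus strand) were higher, in the coordinates of GRCm38. The promoter windows of 3 of these neighbours are shown for the genes that went opposite ways in KO livers, each running from 250 bases before to 50 bases after the annotated start, taken from RefSeq for GRCm38.p6 and written 5′ to 3′ on the strand of the gene. The Hddc3 window is chr7:80342887-80343186 (plus strand), that of Rccd1 is chr7:80324405-80324704 (minus strand), and that of Cib1 is chr7:80232756-80233055 (minus strand). Capitals mark a GC box (GGGCGG or its complement CCGCCC) or a CCAAT box (CCAAT or its complement ATTGG).
Hddc3: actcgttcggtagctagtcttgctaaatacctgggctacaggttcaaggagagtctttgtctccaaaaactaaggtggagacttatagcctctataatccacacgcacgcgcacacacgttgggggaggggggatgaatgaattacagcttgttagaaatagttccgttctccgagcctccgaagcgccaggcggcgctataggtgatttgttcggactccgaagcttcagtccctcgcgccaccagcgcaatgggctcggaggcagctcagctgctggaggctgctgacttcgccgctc
Rccd1: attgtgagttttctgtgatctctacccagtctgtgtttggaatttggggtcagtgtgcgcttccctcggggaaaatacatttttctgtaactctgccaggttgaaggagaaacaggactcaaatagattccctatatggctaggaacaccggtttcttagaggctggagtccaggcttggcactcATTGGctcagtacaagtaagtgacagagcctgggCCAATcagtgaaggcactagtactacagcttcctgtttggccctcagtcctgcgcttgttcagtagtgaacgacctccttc
Cib1: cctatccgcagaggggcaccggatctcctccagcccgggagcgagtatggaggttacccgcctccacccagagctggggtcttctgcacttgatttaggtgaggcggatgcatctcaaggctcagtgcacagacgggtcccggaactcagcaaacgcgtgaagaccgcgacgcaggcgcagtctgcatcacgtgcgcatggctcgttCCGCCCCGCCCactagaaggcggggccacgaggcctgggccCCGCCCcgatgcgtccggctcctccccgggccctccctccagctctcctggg

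Of these windows, that of Hddc3 held neither motif and had 20 CpG dinucleotides, that of Rccd1 held 2 CCAAT boxes and had 5 CpG dinucleotides, and that of Cib1 held 3 GC boxes, of which a pair overlaps, and had 26 CpG dinucleotides. Among all 32851 RefSeq promoter windows of this length, 35.7% held a GC box and 37.4% a CCAAT box on either strand, and the median was 7 CpG dinucleotides. The TATA motif TATAAA, found in 13.6% of windows, was in none of the windows of the 10 genes, 9 of which had a window in the table. These letters are those of the reference genome, the alleles of the KO and WT mice were not read, and a match is not a sign of binding.

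**Figure D1:**
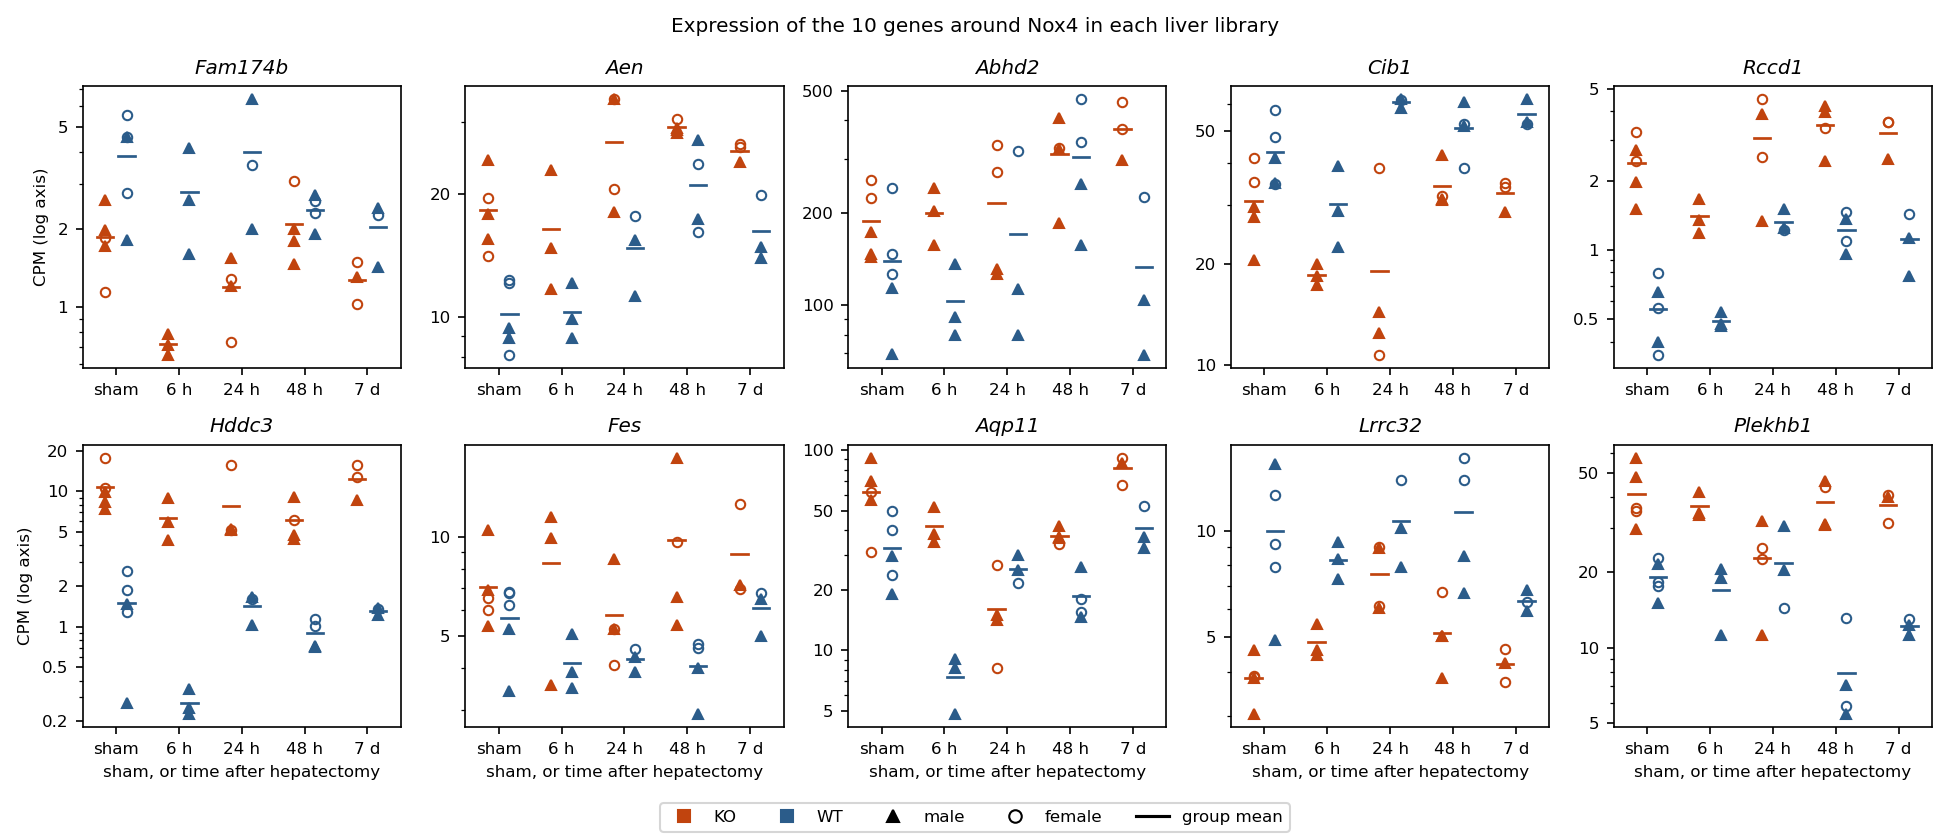
Expression of the 10 genes in each liver library, as CPM on a log axis, by sham or time after hepatectomy. KO libraries (orange) stand left of WT libraries (blue), triangles are males, open circles are females and bars are group means. Hddc3 KO livers, at 4.34 CPM or above, all lie over the WT livers, at 2.60 CPM or below.

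Hddc3 encodes the enzyme known as MESH1, which in human cells removes a phosphate from NADPH and also cleaves the bacterial alarmone ppGpp. In KO livers, Hddc3 stood at 8.28, 17.8, 10.7, 9.94 and 7.36 CPM in sham livers, 5.92, 4.34 and 8.96 at 6 h, 15.8, 5.18, 5.26 and 5.15 at 24 h, 4.44, 9.10, 4.76 and 6.10 at 48 h, and 8.66, 15.7 and 12.8 at 7 d. In WT livers, Hddc3 stood at 1.48, 1.29, 2.60, 1.86 and 0.274 CPM in sham livers, 0.225, 0.349 and 0.251 at 6 h, 1.65, 1.61 and 1.03 at 24 h, 0.705, 1.02, 1.14 and 0.715 at 48 h, and 1.35, 1.21 and 1.37 at 7 d. All 19 KO livers lay above all 18 WT livers, which 0.0643% of the tested genes did in either direction. The lowest KO liver was at 6 h with 4.34 CPM, and the highest WT liver was a sham liver with 2.60 CPM. The 6 h sham liver of the WT group, at 0.274 CPM, lay among the WT livers taken 6 h after hepatectomy. The KO minus WT change averaged over the stages was 3.13 ± 0.19 on the log2 scale (SE), or 8.73-fold, and at single stages it lay between 2.57 at 24 h and 4.32 at 6 h.

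Hddc3 overlaps Man2a2, an enzyme of N-glycan trimming on the opposite strand, by 1451 bases. The strand setting of the counting is not given in the sources used here, so reads of the pair may not be told apart in that stretch. Man2a2 had a KO minus WT change of -0.24 ± 0.12 (log2, SE; edgeR quasi-likelihood, Benjamini-Hochberg adjusted p = 0.246). Once group and sex were removed, Hddc3 and Man2a2 had a Pearson r of -0.31 across the 37 libraries.

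Abhd2 encodes a serine hydrolase of the alpha/beta family that acts on monoacylglycerols. Abhd2 lies at chr7:79273199-79365508 on the plus strand. In KO livers, Abhd2 stood at 147, 255, 223, 173 and 143 CPM in sham livers, 202, 240.1 and 157 at 6 h, 334, 126, 131 and 272 at 24 h, 323, 408, 185 and 326 at 48 h, and 296, 376 and 458 at 7 d. In WT livers, Abhd2 stood at 69.4, 147, 242, 126 and 114 CPM in sham livers, 137, 80.2 and 91.8 at 6 h, 113, 319 and 80.02 at 24 h, 157, 339.5, 471 and 248 at 48 h, and 226, 68.5 and 104 at 7 d. KO and WT livers were apart at 6 h and 7 d, and overlapped in the sham group and at 24 h and 48 h. No KO liver lay above the highest WT liver, a female 48 h liver with 471 CPM, and 9 WT livers lay below every KO liver. The KO minus WT change averaged 0.68 ± 0.14 (log2, SE), and was largest at 7 d, at 1.27 ± 0.35.

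Aen encodes an exonuclease induced by p53 that takes part in the degradation of DNA in apoptosis. Aen lies at chr7:78895854-78911209 on the plus strand. In KO livers, Aen stood at 17.9, 14.1, 19.6, 15.6 and 24.2 CPM in sham livers, 14.8, 23.0 and 11.7 at 6 h, 20.6, 34.2, 18.1 and 34.3 at 24 h, 28.8, 28.3, 29.1 and 30.6 at 48 h, and 24.0, 26.1 and 26.5 at 7 d. In WT livers, Aen stood at 8.89, 8.07, 12.4, 12.1 and 9.42 CPM in sham livers, 12.2, 9.92 and 8.91 at 6 h, 11.3, 17.7 and 15.5 at 24 h, 17.4, 16.2, 23.7 and 27.1 at 48 h, and 19.9, 14.0 and 14.9 at 7 d. Every KO liver lay above every WT liver of its stage in the sham group and at 24 h, 48 h and 7 d, and the genotypes overlapped at 6 h. The change averaged 0.68 ± 0.11 (log2, SE), or 1.60-fold, and 6 of 19 KO livers exceeded the highest WT liver of any stage. Without the 24 h livers, the average was 0.54 ± 0.11.

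Rccd1 encodes a protein with RCC1-type repeats, which in human cells pairs with the hydroxylase KDM8 in chromosome segregation. In KO livers, Rccd1 stood at 1.96, 2.42, 3.26, 2.71 and 1.51 CPM in sham livers, 1.35, 1.67 and 1.18 at 6 h, 4.53, 3.89, 1.33 and 2.54 at 24 h, 3.96, 2.44, 4.24 and 3.38 at 48 h, and 2.47, 3.58 and 3.60 at 7 d. In WT livers, Rccd1 stood at 0.659, 0.348, 0.798, 0.562 and 0.399 CPM in sham livers, 0.535, 0.465 and 0.475 at 6 h, 1.25, 1.23 and 1.5003 at 24 h, 0.959, 1.46, 1.09 and 1.36 at 48 h, and 1.43, 1.13 and 0.770 at 7 d. KO livers lay above WT livers at every stage other than 24 h, where KO liver 3, at 1.33 CPM, fell below WT liver 3, at 1.5003 CPM. In all, 16 of 19 KO livers exceeded the highest WT liver. The change averaged 1.54 ± 0.13 (log2, SE), or 2.91-fold, with 2.08 ± 0.25 in sham livers as the largest single stage.

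Rccd1 shares 21810 bases with Prc1 on the opposite strand, a microtubule-bundling gene of cell division that is turned on in proliferating cells. Prc1 was higher at 48 h than in sham livers, averaged over the genotypes, by 3.62 ± 0.59 (log2, SE; edgeR quasi-likelihood, adjusted p = 8.61e-05). Its KO minus WT change was 0.09 ± 0.43 (adjusted p = 0.929). In the 48 h livers, Prc1 stood at 23.2, 22.2, 14.6 and 11.3 CPM in KO livers and at 23.8, 10.4, 0.409 and 29.4 CPM in WT livers. WT 48 h liver 3, at 0.409 CPM of Prc1, had 1.09 CPM of Rccd1, within the 0.959 to 1.46 CPM of the other WT 48 h livers. Across the 37 libraries, once group and sex were removed, Rccd1 and Prc1 had a Pearson r of 0.12.

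Fes encodes a non-receptor tyrosine kinase best known from myeloid cells. In KO livers, Fes stood at 10.5, 6.50, 6.02, 6.88 and 5.36 CPM in sham livers, 11.4, 3.56 and 9.91 at 6 h, 4.08, 5.27, 8.56 and 5.25 at 24 h, 6.58, 5.39, 17.3 and 9.63 at 48 h, and 7.16, 12.5 and 6.96 at 7 d. In WT livers, Fes stood at 5.27, 6.21, 6.74, 6.81 and 3.42 CPM in sham livers, 3.89, 3.49 and 5.08 at 6 h, 3.91, 4.57 and 4.33 at 24 h, 2.90, 4.74, 4.61 and 4.01 at 48 h, and 6.74, 5.02 and 6.47 at 7 d. The genotypes were apart at 48 h and 7 d and overlapped at the other stages, and 10 of 19 KO livers exceeded the highest WT liver. The highest value was KO 48 h liver 3, at 17.3 CPM. The change averaged 0.70 ± 0.16 (log2, SE), and 0.29 ± 0.31 in sham livers. Without KO 24 h livers 2 to 4 and WT 24 h liver 3, the average was 0.54 ± 0.18. Fes is expressed by liver macrophages and infiltrating myeloid cells, and in bulk RNA more cells of a type and more RNA per cell cannot be told apart. The 9 Kupffer cell markers summed to between 95.0 and 1320 CPM in KO livers (median 340) and between 92.7 and 641 CPM in WT livers (median 401), and their smallest adjusted p for KO against WT was 0.599. The 6 monocyte and neutrophil markers summed to between 2.68 and 35.0 CPM in KO livers and between 4.40 and 43.6 CPM in WT livers, with a smallest adjusted p of 0.309. None of these 15 markers was at 0 in any library. KO 48 h liver 3 had 149 CPM of the Kupffer cell markers, the lowest of the 4 KO livers at 48 h.

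Cib1 encodes a small calcium-binding protein that binds the tail of integrins. In KO livers, Cib1 stood at 27.7, 41.6, 35.1, 20.6 and 29.7 CPM in sham livers, 17.3, 18.5 and 20.0 at 6 h, 38.8, 14.4, 12.5 and 10.7 at 24 h, 31.4, 31.1, 42.4 and 32.0 at 48 h, and 28.6, 35.0 and 34.1 at 7 d. In WT livers, Cib1 stood at 41.7, 34.7, 48.0, 57.6 and 34.9 CPM in sham livers, 28.9, 39.4 and 22.5 at 6 h, 58.7, 61.8 and 62.2 at 24 h, 51.9, 52.5, 38.8 and 61.0 at 48 h, and 52.5, 53.3 and 62.4 at 7 d. KO livers lay below WT livers at 6 h, 24 h and 7 d, and the genotypes overlapped in the sham group and at 48 h. KO 24 h liver 1, at 38.8 CPM, stood away from the other KO livers of that time, at 10.7 to 14.4 CPM. The change averaged -0.89 ± 0.14 (log2, SE), or 0.540-fold, and -0.71 ± 0.14 without KO 24 h livers 2 to 4 and WT 24 h liver 3.

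Cib1 starts 52 bases from Gdpgp1, a GDP-glucose phosphorylase gene read in the opposite direction, so the printed window of Cib1 also covers the start of Gdpgp1. Gdpgp1, at chr7:80232865-80242061 on the plus strand, is not among the 10 genes. Gdpgp1 was lower in KO livers too, at -0.64 ± 0.15 on the log2 scale, and passed the test (adjusted p = 0.0127, edgeR quasi-likelihood; SE). With group and sex removed, Cib1 and Gdpgp1 had a Pearson r of -0.06 across the 37 libraries.

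Aqp11 encodes a water channel of intracellular membranes, and mice without it have vacuolated hepatocytes and cystic kidneys. Aqp11 lies at chr7:97724006-97738289 on the minus strand, on the other side of Nox4. In KO livers, Aqp11 stood at 56.4, 31.1, 61.5, 70.1 and 91.8 CPM in sham livers, 38.0, 34.7 and 52.3 at 6 h, 26.7, 14.3, 15.1 and 8.18 at 24 h, 42.0, 36.4, 37.1 and 33.9 at 48 h, and 86.4, 66.9 and 91.8 at 7 d. In WT livers, Aqp11 stood at 29.6, 40.1, 49.7, 23.9 and 19.1 CPM in sham livers, 9.02, 8.20 and 4.80 at 6 h, 30.0, 21.8 and 25.1 at 24 h, 14.7, 18.1, 15.6 and 26.2 at 48 h, and 52.7, 36.9 and 32.6 at 7 d. KO livers lay above WT livers at 6 h, 48 h and 7 d, and overlapped with them in the sham group. At 24 h the genotypes overlapped too and the order of the means was the opposite one, with 16.1 ± 7.73 CPM in 4 KO livers and 25.7 ± 4.14 CPM in 3 WT livers (SD). The change averaged 0.94 ± 0.14 (log2, SE), and 1.26 ± 0.15 without the 24 h livers.

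Lrrc32 encodes GARP, a receptor that holds latent TGF-beta at the surface of regulatory T cells, platelets and endothelial cells. Lrrc32 lies at chr7:98489283-98502181 on the plus strand. In KO livers, Lrrc32 stood at 3.03, 3.88, 3.87, 3.82 and 4.59 CPM in sham livers, 5.45, 4.47 and 4.61 at 6 h, 6.12, 6.05, 8.98 and 9.05 at 24 h, 5.05, 3.83, 5.03 and 6.73 at 48 h, and 4.22, 4.63 and 3.73 at 7 d. In WT livers, Lrrc32 stood at 15.6, 9.18, 12.6, 7.90 and 4.91 CPM in sham livers, 9.30, 7.30 and 8.35 at 6 h, 7.93, 14.0 and 10.2 at 24 h, 8.49, 16.2, 14.0 and 6.66 at 48 h, and 6.31, 6.80 and 5.96 at 7 d. Every KO liver lay below every WT liver of its stage in the sham group and at 6 h and 7 d, and the genotypes overlapped at 24 h and 48 h. The change averaged -0.89 ± 0.12 (log2, SE), or 0.540-fold, and -1.08 ± 0.13 without the 24 h livers. The 8 sinusoidal endothelial markers summed to between 49.1 and 254 CPM in KO livers (median 117) and between 55.0 and 284 CPM in WT livers (median 133), and their smallest adjusted p for KO against WT was 0.0903. All 8 had a KO minus WT change below 0, between -0.55 (Clec4g) and -0.12 (Lyve1) on the log2 scale. In sham livers that sum was 82.8 to 193 CPM in KO (median 124) and 82.03 to 284 CPM in WT (median 227). At 24 h it was 49.1 to 80.02 CPM in KO livers and 95.5 to 225 CPM in WT livers, ranges that did not overlap. The part of these markers in the Lrrc32 difference was not tested. The 4 platelet markers summed to at most 8.61 CPM in KO livers and 6.08 CPM in WT livers. Foxp3, which defines regulatory T cells, was at 0 in 10 libraries and at most 0.218 CPM.

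Fam174b encodes a predicted membrane protein. Fam174b lies at chr7:73740302-73776919 on the plus strand, the farthest of the 10 from Nox4 at 13.5 Mb. In KO livers, Fam174b stood at 1.99, 1.14, 1.86, 2.59 and 1.73 CPM in sham livers, 0.713, 0.783 and 0.648 at 6 h, 1.28, 1.21, 1.54 and 0.731 at 24 h, 1.47, 1.80, 2.004 and 3.09 at 48 h, and 1.304, 1.03 and 1.49 at 7 d. In WT livers, Fam174b stood at 4.54, 5.53, 4.55, 2.77 and 1.82 CPM in sham livers, 4.14, 1.60 and 2.60 at 6 h, 1.99, 3.56 and 6.40 at 24 h, 1.92, 2.31, 2.56 and 2.72 at 48 h, and 2.27, 2.43 and 1.43 at 7 d. KO livers lay below WT livers at 6 h and 24 h and overlapped with them elsewhere, and 9 of 19 KO livers lay below the lowest WT liver. The change averaged -1.12 ± 0.15 (log2, SE), or 0.459-fold, with -2.15 ± 0.37 at 6 h and -0.31 ± 0.31 at 48 h.

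Plekhb1 encodes a pleckstrin homology protein of Golgi membranes, best known from photoreceptors. Plekhb1 lies at chr7:100642892-100662414 on the minus strand, 13.2 Mb from Nox4. In KO livers, Plekhb1 stood at 57.5, 36.1, 35.2, 29.7 and 48.0 CPM in sham livers, 34.4, 34.0 and 42.0 at 6 h, 25.04, 11.3, 32.2 and 22.7 at 24 h, 31.1, 31.0, 46.5 and 44.1 at 48 h, and 39.9, 40.7 and 31.4 at 7 d. In WT livers, Plekhb1 stood at 21.6, 22.8, 18.3, 17.7 and 15.1 CPM in sham livers, 11.2, 19.1 and 20.6 at 6 h, 20.5, 14.3 and 30.7 at 24 h, 5.41, 13.2, 5.86 and 7.10 at 48 h, and 13.03, 12.3 and 11.2 at 7 d. KO livers lay above WT livers at every stage other than 24 h, and 15 of 19 KO livers exceeded the highest WT liver. The change averaged 1.23 ± 0.14 (log2, SE), or 2.35-fold, with 2.17 ± 0.31 at 48 h and 0.49 ± 0.33 at 24 h.

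**Figure D2:**
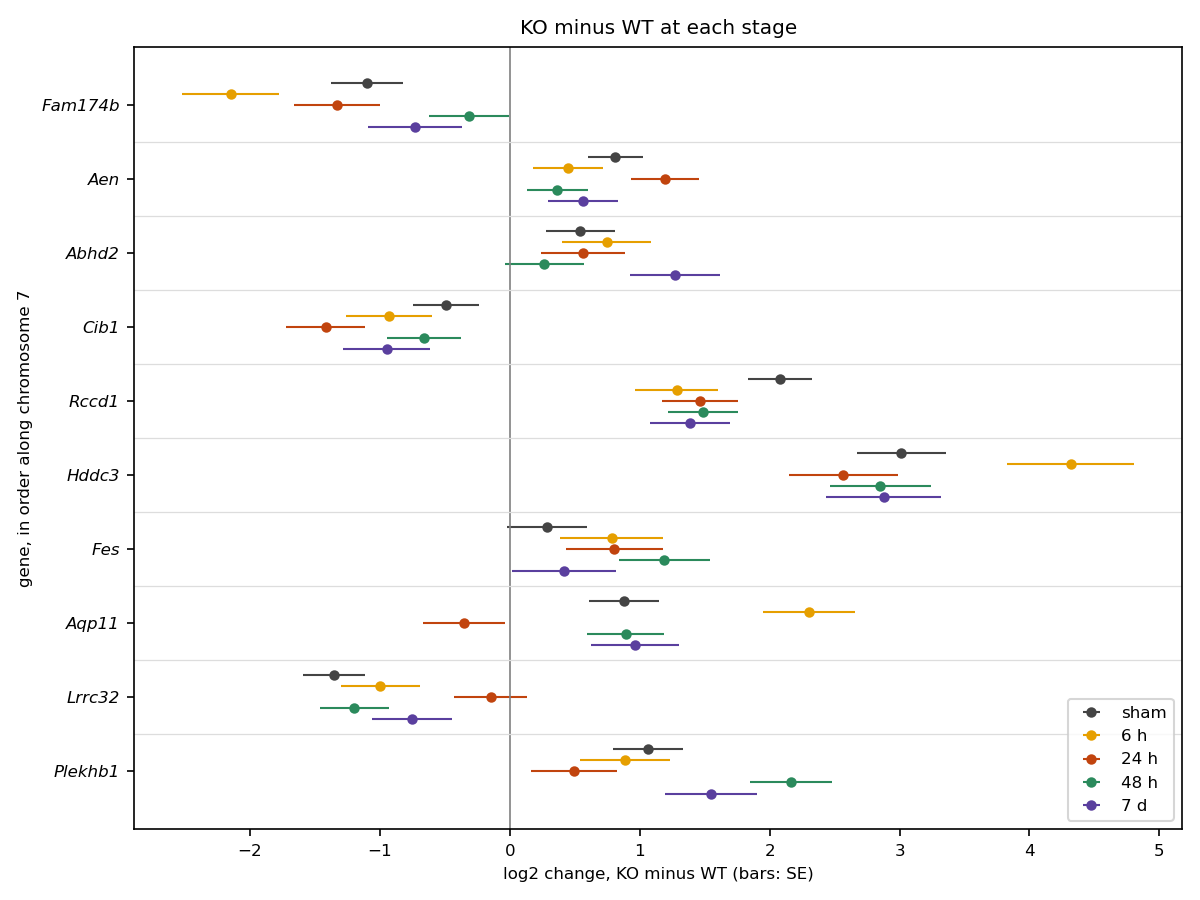
KO minus WT change of each of the 10 genes at each stage, on the log2 scale, with SE bars. A point right of 0 is higher in KO livers. All 5 points of a gene lie on the same side of 0 for every gene but Aqp11, which is at -0.35 at 24 h and at 0.88 to 2.30 at the other stages.

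Side by side, 7 of the 10 genes were higher and 3 were lower in KO livers averaged over the stages, with a median absolute change of 0.91 on the log2 scale, against 0.19 over all tested genes. All 10 passed an adjusted p of 0.05 there, which says nothing beyond their choice, against 2.72% of all tested genes (2.02% higher and 0.694% lower). At single stages, the count of the 10 past that threshold was 3 in sham livers (0.276% of all genes), 3 at 6 h (0.116%), 5 at 24 h (18.6%), 4 at 48 h (0.341%) and 1 at 7 d (0.045%). The fit without KO 24 h livers 2 to 4 and WT 24 h liver 3 leaves 1 KO liver at 24 h, so no count is given for it. KO and WT ranges were apart for 5 of the 10 in sham livers (1.52% of all genes), 8 at 6 h (20.2%), 4 at 24 h (12.8%), 6 at 48 h (6.63%) and 9 at 7 d (11.2%). By gene, the ranges were apart at all 5 stages for Hddc3 (0.0707% of all genes), at 4 stages for Aen, Rccd1 and Plekhb1 (4 or more, 0.218%), at 3 for Cib1, Aqp11 and Lrrc32 (3 or more, 1.06%), and at 2 for Fam174b, Abhd2 and Fes (2 or more, 9.1%). The stages enter the average that chose the genes, so these counts too are a description and nothing is read from them. Just inside the threshold among the genes within 20 Mb stood Hbb-bt (adjusted p = 0.0447), AU020206 and Trim12a, and just outside it Smpd1 (adjusted p = 0.0530), Nars2 and Gm7964 (edgeR quasi-likelihood, Benjamini-Hochberg).

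In level, the 10 genes spanned a wide range. As mean CPM per kilobase of annotated exon, Abhd2 had 23.8 in KO livers and 16.5 in WT livers, and Rccd1 had 0.347 in KO livers and 0.115 in WT livers. Hddc3 had 2.32 in KO livers and 0.296 in WT livers, which placed it above Lrrc32 (1.09) in KO livers and below Lrrc32 (2.03) in WT livers on this scale.

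A dependence of the genotype difference on sex was not detected. In a model with a genotype by sex term, Hddc3 was higher in KO livers by 3.09 ± 0.24 in males and 3.19 ± 0.33 in females (log2, SE), and Rccd1 by 1.44 ± 0.16 in males and 1.72 ± 0.22 in females. The widest gaps were those of Fes, at 0.89 ± 0.21 in males and 0.36 ± 0.28 in females, and Cib1, at -1.08 ± 0.17 in males and -0.55 ± 0.23 in females. The term passed an adjusted p of 0.05 for 0 of the 10 genes by edgeR's quasi-likelihood test and 0 by DESeq2, and 0 of the 10 had an unadjusted p under 0.05. Across all genes 0.00643% passed, which was Cyp2a22 alone.

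The genotype difference changed between stages for Aqp11 (adjusted p = 0.0206 for the genotype by stage interaction, edgeR quasi-likelihood), where 3.05% of all genes passed. Since the differences at the stages entered the choice of the genes, the p-values here are a description. The KO minus WT change of Aqp11 was 0.88 ± 0.27 in sham livers, 2.30 ± 0.35 at 6 h, -0.35 ± 0.32 at 24 h, 0.89 ± 0.30 at 48 h and 0.96 ± 0.34 at 7 d. Its WT livers at 6 h, at 4.80 to 9.02 CPM, and its KO livers at 24 h, at 8.18 to 26.7 CPM, were the low ends of each genotype. The call was lost without any 1 of WT 24 h livers 1 and 3 and KO 24 h livers 3 and 4 (adjusted p up to 0.0583), and without all of the 24 h livers it was 0.367. Leaving out KO 24 h livers 2 to 4 and WT 24 h liver 3 leaves 1 KO liver at 24 h. Aqp11 was then at 0.25 ± 0.47 for KO minus WT at that time. Plekhb1 (adjusted p = 0.0975) and Fam174b (0.107) did not pass by edgeR and did by DESeq2. DESeq2 called more genes in all for this interaction than edgeR, as given in the closing part. Plekhb1 passed by edgeR without WT 48 h liver 2 (adjusted p = 0.0422), and Cib1 passed without KO 24 h liver 1 (adjusted p = 0.0310). The fit without KO 24 h liver 1 called 2763 genes in all, against 475 in the main fit. With every library in, the adjusted p of the other 7 genes, Cib1 included, lay between 0.194 and 0.612.

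Several of the genes differed between hepatectomy and sham livers, averaged over the genotypes with equal weight. Sham livers of all sampling times were pooled, so surgery and time of sampling are not fully separated in these comparisons. At 6 h after hepatectomy, 3 of the 10 differed from sham livers, where 20.6% of all genes did (10.6% higher and 9.91% lower). Aqp11 (-1.02 ± 0.23, adjusted p = 0.00248) and Hddc3 (-0.83 ± 0.30, adjusted p = 0.0499) fell and Abhd2 rose (0.63 ± 0.23, adjusted p = 0.0456), all on the log2 scale with SE and by edgeR's quasi-likelihood test. The calls of Hddc3 and Abhd2 sat at the threshold and were lost in 20 and 28 of the 37 fits that left out a library. Only sham liver 5 of each genotype was taken at 6 h. Its Hddc3 (7.36 CPM in KO, 0.274 in WT) lay within the range of the 6 h hepatectomy livers (4.34 to 8.96 and 0.225 to 0.349). Its Aqp11 (91.8 and 19.1 CPM) lay above theirs (34.7 to 52.3 and 4.80 to 9.02). Its Abhd2 lay below theirs in KO (143 against 157 to 240.1 CPM) and within theirs in WT (114 against 80.2 to 137). With every library in the fit, Lrrc32 (0.51 ± 0.20, adjusted p = 0.0704) and Fam174b (-0.55 ± 0.24, adjusted p = 0.107) did not pass.

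At 24 h, 4 of the 10 passed, against 17% of all genes (9.14% higher and 7.86% lower). Rccd1 (0.82 ± 0.18, adjusted p = 0.00315), Lrrc32 (0.57 ± 0.18, adjusted p = 0.0303) and Aen (0.52 ± 0.16, adjusted p = 0.0245) rose and Aqp11 fell (-1.16 ± 0.21, adjusted p = 0.000719). Of the 37 fits that left out a library, 7 lost the Lrrc32 call (adjusted p up to 0.142) and 3 the Aen call (up to 0.117), by edgeR's test. Lrrc32 stood at 3.03 to 4.59 CPM in KO sham livers and 6.05 to 9.05 at 24 h. In WT livers it stood at 4.91 to 15.6 and 7.93 to 14.0 CPM. The fit without KO 24 h livers 2 to 4 and WT 24 h liver 3 keeps KO liver 1 alone for KO at 24 h, so no calls are given for it. Rccd1 was then at 1.04 ± 0.22, Aqp11 at -0.72 ± 0.28, Lrrc32 at 0.36 ± 0.24 and Aen at 0.33 ± 0.21 (log2, SE).

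At 48 h, near the peak of cell division in the mouse, 6 of the 10 passed, against 11.2% of all genes (6.28% higher and 4.96% lower). Abhd2 (0.81 ± 0.20, adjusted p = 0.00591), Rccd1 (0.68 ± 0.18, adjusted p = 0.00952) and Aen (0.63 ± 0.16, adjusted p = 0.00614) rose. Aqp11 (-1.002 ± 0.202, adjusted p = 0.000812), Plekhb1 (-0.95 ± 0.20, adjusted p = 0.00170) and Hddc3 (-0.83 ± 0.25, adjusted p = 0.0249) fell. Aqp11 averaged 37.3 ± 3.39 CPM at 48 h and 62.2 ± 22.0 CPM in sham livers among KO mice (SD, n = 4 and 5), and 18.6 ± 5.24 CPM at 48 h and 32.5 ± 12.4 CPM in sham livers among WT mice (n = 4 and 5). The Hddc3 call was lost without any 1 of WT sham liver 1, WT 48 h liver 2 and KO 48 h livers 1 and 4, with adjusted p up to 0.0676.

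At 7 d, 0 of the 10 passed by edgeR, against 0.0514% of all genes. By the same test, 5 of the 10 had an unadjusted p under 0.05, as did 1067 of all 15564 tested genes. Aqp11 stood 0.20 ± 0.21 above its sham level (adjusted p = 0.924). The largest change was that of Fam174b, at -0.87 ± 0.23 (adjusted p = 0.170 by edgeR), the only 1 of the 10 that passed at 7 d by DESeq2. More genes in all passed at 7 d by DESeq2 than by edgeR, as given in the closing part. Cib1 and Fes passed at no time, with log2 changes of -0.18 to 0.06 for Cib1 and -0.33 to 0.29 for Fes.

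**Figure D3:**
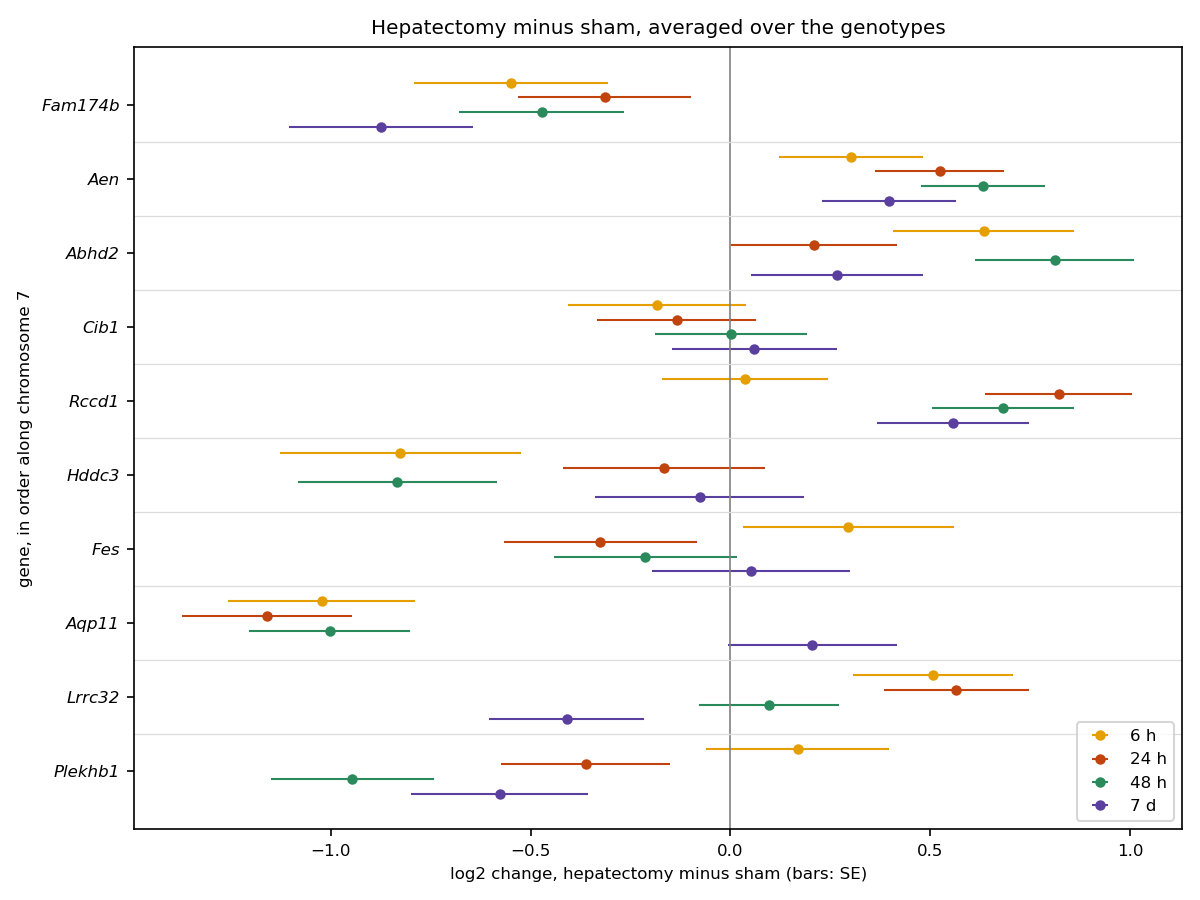
Change of each of the 10 genes after hepatectomy relative to sham livers, averaged over KO and WT, on the log2 scale with SE bars. Aqp11 lies at -1.02, -1.16 and -1.002 at 6 h, 24 h and 48 h and at 0.20 at 7 d, while Aen lies right of 0 at all 4 times.

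Aen was set beside 15 other genes known to be induced by p53, a list chosen with earlier results of these data known. At 24 h after hepatectomy, 6 of the 15 were higher than in sham livers and none was lower, against 9.14% higher and 7.86% lower of all genes. By edgeR's quasi-likelihood test (log2 changes with SE), the 6 included Trp53inp1, a stress-induced regulator of autophagy (2.65 ± 0.62, adjusted p = 0.00459). By the same test they included Cdkn1a, the cell cycle inhibitor p21 (2.39 ± 0.72, adjusted p = 0.0209), and Mdm2, the ligase that degrades p53 (0.94 ± 0.25, adjusted p = 0.0109). Without KO 24 h livers 2 to 4 and WT 24 h liver 3, which leaves 1 KO liver at 24 h, these 3 changes were lower. Trp53inp1 was then at -0.91 ± 0.71, Cdkn1a at 1.66 ± 1.04 and Mdm2 at 0.04 ± 0.31. The median change of the 15 at 24 h was then 0.04, and that for KO minus WT averaged over the stages was 0.16. At 48 h, 5 of the 15 were higher and none was lower, against 6.28% higher and 4.96% lower of all genes. By edgeR's test the 5 included Tnfrsf10b, a death receptor (2.22 ± 0.36, adjusted p = 8.17e-05), and Phlda3, an inhibitor of Akt (1.40 ± 0.28, adjusted p = 0.000628). By the same test they included Bax, which opens the outer mitochondrial membrane (0.62 ± 0.15, adjusted p = 0.00499). At 6 h, 5 were higher and Bbc3, a pro-apoptotic partner of Bcl2, was lower (-1.79 ± 0.43, adjusted p = 0.00351 by edgeR). Of all genes, 10.6% were higher and 9.91% lower at that time. The median change of the 15 was 0.61, 0.48, 0.62 and 0.02 at 6 h, 24 h, 48 h and 7 d, against 0.01, 0.05, 0.04 and -0.01 over all genes. For KO minus WT averaged over the stages, the median of the 15 was 0.28 against 0.00 over all genes, Perp had the smallest adjusted p (0.0620, log2 change 0.34 ± 0.10), and Aen stood at 0.68. At 24 h, 4 of the 15 were higher in KO livers, among them Cdkn1a (4.36 ± 1.25, adjusted p = 0.0172 by edgeR), where 18.6% of all genes passed in either direction. Cdkn1a had 63.9, 291, 478 and 459.7 CPM in KO 24 h livers 1 to 4, against 2.98, 26.5 and 33.2 CPM in WT 24 h livers 1 to 3, and KO livers 2 to 4 are among those that stood apart. Without those 3 and WT 24 h liver 3, liver 1 is the only KO liver at 24 h. For KO minus WT at 24 h, Cdkn1a was then at 2.36 ± 1.66 and the median of the 15 was -0.11. With 1 KO liver, that fit cannot show which livers the difference came from.

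Abhd2 differed between the sexes. It was lower in males than in females, at -0.79 ± 0.16 on the log2 scale (adjusted p = 0.00149, edgeR quasi-likelihood; SE), where 3.59% of all genes passed, 1.61% higher and 1.97% lower in males, and it was the only 1 of the 10 to pass. In sham livers, male KO mice had 143 to 173 CPM and female KO mice 223 and 255 CPM, and male WT mice had 69.4 and 114 CPM and female WT mice 126 to 242 CPM. Every female lay above every male in 7 of the 8 groups that held both sexes, the exception being KO livers at 48 h. Leaving out each library in turn kept its adjusted p between 0.000210 and 0.00465. Hddc3, at -0.54 ± 0.19 for males against females, did not pass (adjusted p = 0.144).

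Around Nox4 as a whole, genes other than the 10 also differed between KO and WT livers. Within 20 Mb, 240 genes besides Nox4 and the 10 were tested, and 33 of them passed an adjusted p of 0.05 averaged over the stages (13.8%), against 378 of 15291 genes elsewhere (2.47%). By distance from Nox4, the share was 6.06% within 5 Mb (2 of 33), 13.04% at 5 to 10 Mb (9 of 69), 20.9% at 10 to 15 Mb (18 of 86) and 7.69% at 15 to 20 Mb (4 of 52). It was 2.18% over the rest of chromosome 7 (21 of 964) and 2.49% on other chromosomes (357 of 14327). At single stages, the share of the 240 was 3.33% in sham livers (0.203% elsewhere), 0.833% at 6 h (0.0850%) and 22.1% at 24 h (18.5%). It was 1.67% at 48 h (0.288%) and 0.417%, or 1 gene, at 7 d (0.0327%). For the response at 48 h after hepatectomy the share within 20 Mb was 10.4%, against 11.2% elsewhere, and for males against females it was 2.08% against 3.60%. Without KO 24 h livers 2 to 4 and WT 24 h liver 3, the share was 7.81% within 20 Mb, for genes other than the 10, against 0.694% elsewhere. The 2 shares lay closer as a ratio without KO 24 h liver 1 (24.6% against 12.8%), without WT 24 h liver 3 (18.9% against 8.99%) and with no count filter (9.53% against 4.87%). Neighbouring genes are not independent of each other, and these shares are a description with no test.

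**Figure D4:**
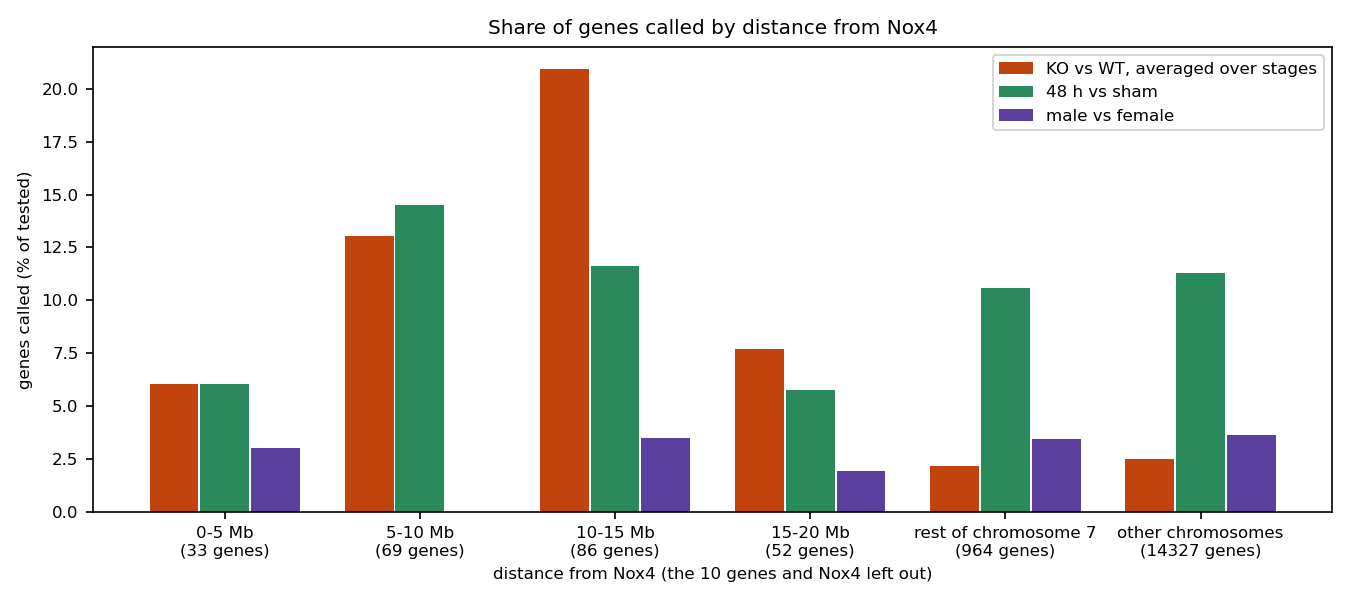
Share of tested genes past an adjusted p of 0.05 by distance from Nox4, with the 10 genes and Nox4 left out, for KO against WT (orange), 48 h against sham (green) and male against female (purple). The orange bar is 20.9% at 10 to 15 Mb and 2.49% on other chromosomes, while the green bars lie between 5.77% and 14.5% in all 6 classes.

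**Figure D5:**
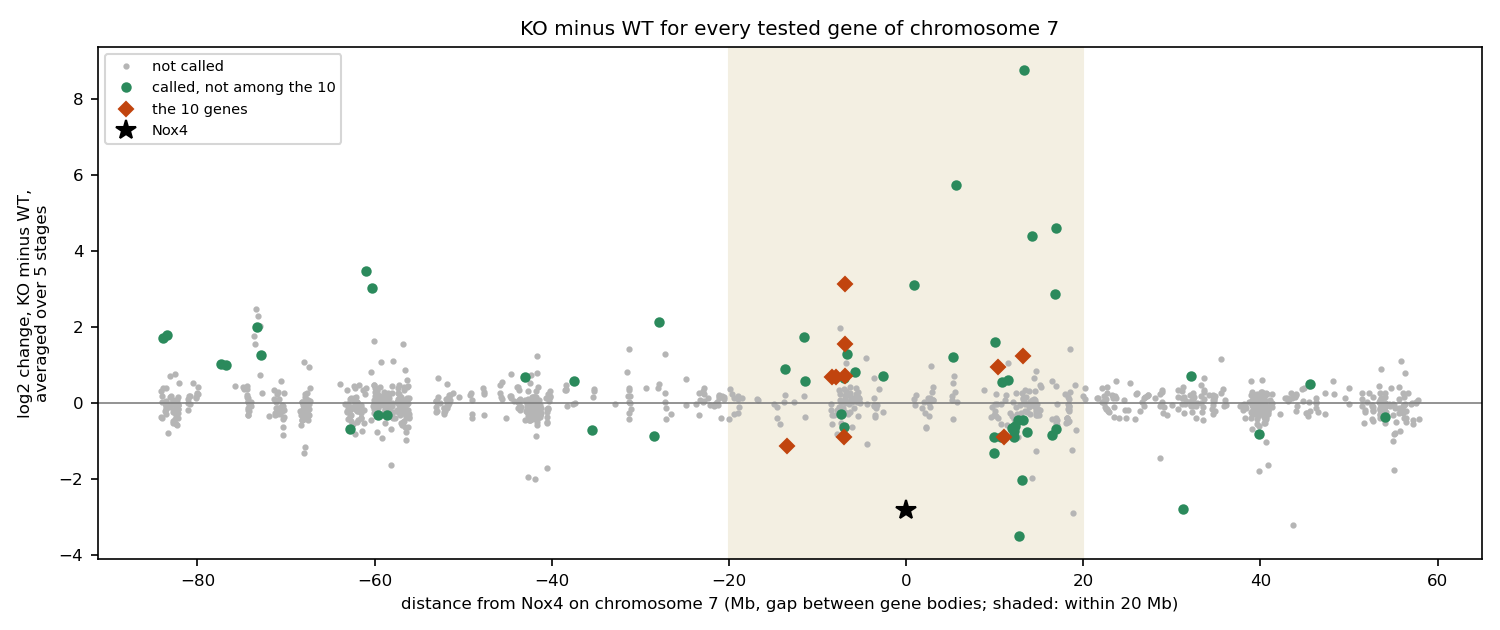
KO minus WT change averaged over the stages, on the log2 scale, for every tested gene of chromosome 7 by its distance from Nox4 in Mb. Grey points did not pass an adjusted p of 0.05, green points did, diamonds are the 10 genes and the star is Nox4 at -2.82. The shaded band holds the genes within 20 Mb.

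Of those 33 genes, the long noncoding RNA gene Gm35082 (chr7:100675088-100677760) had no counts in any of the 18 WT livers and 23 to 89 counts in each of the 19 KO livers, or 0.533 to 3.37 CPM. It is a neighbour of Plekhb1 on the opposite strand. Gm26862, a transcript at 5.61 Mb from Nox4, likewise had no counts in WT livers and 1 to 13 counts in KO livers. Gm44751, a long noncoding RNA gene 0.913 Mb from Nox4, had 0.490 to 6.13 CPM in KO livers and 0 to 0.733 CPM in WT livers. Kcne3, a potassium channel subunit, was lower, at 0 to 0.232 CPM in KO livers and 0.112 to 1.15 CPM in WT livers. Myo7a, an unconventional myosin of the inner ear, had 1.40 to 9.37 CPM in KO livers and 3.64 to 13.4 CPM in WT livers (log2 change -0.91 ± 0.12, adjusted p = 5.86e-06, edgeR quasi-likelihood). Tpbgl, a leucine-rich repeat membrane protein, had 2.18 to 7.73 CPM in KO livers and 2.82 to 20.6 CPM in WT livers (-0.90 ± 0.15, adjusted p = 0.000314).

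The closest genes to Nox4 itself gave little to compare. The vomeronasal receptor genes Vmn2r77, Vmn2r78 and Vmn2r79 on one side had no counts in any library, and Tyr, the melanin enzyme, and Grm5, a glutamate receptor, on the other side had too few counts to be tested. Ctsc, a lysosomal protease 0.879 Mb away, had a KO minus WT change of 0.09 ± 0.15 (log2, SE; edgeR quasi-likelihood, adjusted p = 0.763).

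With group and sex removed, the 10 genes showed little tendency to vary together. The 45 pairs had Pearson r between -0.41 and 0.46 across the 37 libraries, with a median of -0.01. The gene most like each of the 10 among all tested genes lay outside the 20 Mb window in every case. Since 15291 tested genes lay outside the window and 251 inside it, nothing is read from that. Cib1 was closest to Tmem37, a membrane protein gene, with r = 0.95, Hddc3 to Nme4, a mitochondrial nucleoside diphosphate kinase, with r = 0.83, and Aen to Polr1e, a subunit of RNA polymerase I, with r = 0.82. Over the other 7 genes the highest r lay between 0.70 and 0.81. These correlations share library depth and composition, and were picked as the highest of all tested genes.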

How the data were processed

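Liver RNA of 37 libraries was sequenced with a stranded mRNA kit, per the labels' protocols. The submitters' processing notes name STAR 2.5.3a, RSEM 1.3.0 and the GRCm38 genome, without saying which made the table. The values are whole numbers, taken to be estimated counts per gene that the authors rounded before they deposited them, and were used without change. The strand setting is not given in the sources used here.

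Genes were kept by edgeR's filterByExpr with a minimum count of 10 (15564 of 55487), scaled by TMM, and fitted with edgeR 4.0.16 (R 4.3.3) by the robust quasi-likelihood test over the 37 libraries in a single model with a term for each of the 10 groups and a term for sex. P-values were Benjamini-Hochberg adjusted over all tested genes, with a threshold of 0.05. Averages over stages or genotypes weight them equally. Residual correlations used log2 CPM with a prior count of 2. DESeq2 1.42.0 and the other alternatives are described in the closing part. The procedure was tested on simulated data. Positions are from GENCODE M21 (GRCm38), and promoter windows from RefSeq (GRCm38.p6). Libraries of a group differed by more than sampling noise, with 32.1 as the lowest ratio of chi-square to degrees of freedom of any pair. Depth limits low genes most, and counting error is part of the spread between libraries.

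The genes and the lists were chosen with earlier results of these data known. Beside the 10 genes and Nox4, the genes named are up to 10 others with the smallest p within 20 Mb of Nox4, the 3 protein-coding genes on each side of Nox4, genes overlapping or starting next to one of the 10, the gene most correlated with each, a p53 list, markers of 9 cell types and the genes at the threshold.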

Additional observations from a re-analysis of the deposited data

Results flagged for a closer look

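3 of the 50 sets of libraries formed by a gene and a group held a library far from the rest of its group, where chance marks about 1 in 20 of the sets that can be tested. Cib1 stood at 38.8 CPM in KO 24 h liver 1, against 10.7 to 14.4 CPM in the other KO livers at 24 h. Hddc3 stood at 15.8 CPM in the same liver, against 5.15 to 5.26 CPM in the others. Cib1 stood at 42.4 CPM in KO 48 h liver 3, against 31.1 to 32.0 CPM in the others.

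The genotype difference of Aqp11 changed between stages (adjusted p = 0.0206, edgeR quasi-likelihood with Benjamini-Hochberg adjustment), with a KO minus WT log2 change of 2.30 at 6 h and -0.35 at 24 h. That difference is part of what chose Aqp11, so this is a description.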

How the results depend on the processing

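No paired analysis was possible because the labels give no replicate numbers. Leaving out 4 of the 24 h livers (KO 2 to 4 and WT 3) or all of them was chosen after seeing the data. Without the 4, KO liver 1 is the only KO liver at 24 h. Counts at 24 h in that fit cannot show where a difference came from. For KO against WT averaged over the stages, 423 genes passed, against 865 by DESeq2, 1459 with no count filter, 202 in males alone, 879 without the 24 h livers and 143 without 4 of them. Of the 423 genes, 315 were higher in KO livers, against 515 of 879 without the 24 h livers, 1033 of 2029 (50.9%) without KO 24 h liver 1 and 128 of 202 in males alone. In sham livers, KO against WT gave 43 genes, 286 by DESeq2, 871 with no filter, 66 when the sham livers taken at 6 h were left out, 3 in males alone, 21 with the compared groups alone and 411 without the 4 livers. At 6 h it gave 18, 125, 358, 38, 6, 5 and 86 in the same order. At 24 h it gave 2891, 5 without the 4 livers, and 0 with the compared groups alone by edgeR, where 2157 had an unadjusted p under 0.05 and DESeq2 on all groups called 3508. At 48 h it gave 53, 224 by DESeq2, 621 with no filter, 17 in males alone, 27 with the compared groups alone and 164 without the 4 livers, and at 7 d it gave 7, 28 by DESeq2, 97 with no filter, 2 in males alone and 11 without the 4 livers. The hepatectomy response gave 3200 genes at 6 h (1463 in males alone), 2646 at 24 h (1488 in males alone and 167 without the 4 livers) and 1750 at 48 h (894 in males alone). At 7 d it gave 8, 89 by DESeq2, 359 with no filter, 4 with no sex term, 14 without the 6 h sham livers, 18 without the 4 livers and 0 in males alone by edgeR, where 990 had an unadjusted p under 0.05. The genotype by stage interaction gave 475, 1681 by DESeq2, 2628 with no filter, 857 without the 6 h sham livers, 303 with no sex term, 260 in males alone, and 0 by edgeR both without the 24 h livers (1373 unadjusted) and without 4 of them (1143 unadjusted). Male against female gave 558, 853 by DESeq2 and 1093 with no filter, and genotype by sex 1, 5 by DESeq2 and 198 with no filter. Within 20 Mb, 44 genes passed, and 22 in males alone. Leaving out each library in turn gave 202 to 2029 genes averaged over the stages, 21 to 307 in sham livers, 6 to 236 at 6 h, 998 to 5452 at 24 h, 25 to 139 at 48 h and 5 to 11 at 7 d for KO against WT. It gave 2015 to 4116, 1691 to 4562, 1398 to 2119 and 0 to 17 for the hepatectomy response at the 4 times, 13 to 2763 for genotype by stage, 446 to 762 for sex, 1 for genotype by sex and 37 to 70 for genes within 20 Mb. The cause was not tested.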

Other observations

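Mrpl48, a mitochondrial ribosomal protein gene of chromosome 7 that was singled out after its values were seen, averaged 20.2 ± 3.72 CPM in KO livers and 27.3 ± 4.98 CPM in WT livers (SD, n = 19 and 18). Its log2 change was -0.45 ± 0.11 (SE; edgeR quasi-likelihood, adjusted p = 0.0166). Mrpl48-ps, a processed pseudogene of it on chromosome 4, averaged 2.07 ± 0.529 CPM in KO livers and 0.121 ± 0.0514 CPM in WT livers (log2 change 4.10 ± 0.22, adjusted p = 3.99e-14). Reads of the pair may have been split between them by the counting, so each value alone is uncertain. Their sum was 22.3 ± 4.08 CPM in KO livers and 27.4 ± 5.002 CPM in WT livers.

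The adult beta-globin genes Hbb-bt and Hbb-bs are near-identical copies within 20 Mb of Nox4. Reads of this pair too may have been split between them by the counting, so the share of each is uncertain. Hbb-bt made up 11.3 ± 1.25% of their summed counts in KO livers, with a range of 9.02% to 13.6%, and 14.0 ± 1.75% in WT livers, with a range of 11.0% to 16.8% (SD, n = 19 and 18).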
